A study of Mus musculus with 12 samples.

Results

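The genes described here break down glucose to pyruvate, build and break down glycogen, and make or move lactate in mouse muscle. They were taken as a list of 37 gene symbols, chosen with earlier results of these data known. Each was read from the brightest of its probe sets. Of the 37, 33 were tested among 11345 genes. Gapdh was read only from array control probe sets. For Gpi1, Eno1 and Pfkfb1, no probe set carried the gene's symbol alone in the annotation used, and they are not analysed here. Whether probe sets with several symbols name them was not checked. Muscle RNA of 12 mice was hybridised to one array per mouse, in 4 groups of 3 mice. The groups were GPR120 KO mice on a high fat diet (HFD), GPR120 KO mice on a normal diet (ND), wild-type (WT) mice on HFD and WT mice on ND. All mice were 16 weeks old, on a background of mixed 129/Sv and C57BL/6. GPR120, which Ffar4 encodes, is a membrane receptor that senses long-chain fatty acids. The labels do not say how the deletion was made, which sex the mice were or which muscle was taken. Mouse numbers cover separate ranges in the groups, so group and cohort cannot be told apart.

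Glycolysis splits a glucose molecule in steps that consume ATP, then recovers ATP in the steps that lead to pyruvate. Muscle draws much of this glucose from its own glycogen, which glycogen synthase builds and glycogen phosphorylase breaks down under the control of phosphorylase kinase and of protein phosphatase targeting subunits. Fast fibres rely heavily on this route and turn pyruvate into lactate through lactate dehydrogenase A, while the B subunit is the form typical of heart and slow fibres. The bifunctional PFKFB enzymes make and remove fructose 2,6-bisphosphate, the strongest activator of phosphofructokinase.

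The values are deposited log2 signals, and a difference is a difference of group means on that scale, with its standard error (SE). The 33 tested genes had 68 probe sets, of which 59 passed the filter on low signal, and all 33 genes passed. The signal of a probe set depends on its sequence, so genes are not ranked by level. The brightest probe sets of Aldoa, Pgk1, Ugp2 and Gyg are of the types marked x or s by the manufacturer, whose signal may be shared with related sequences. Marker genes of fast and slow fibres were present on every array, with brightest means of 13.97 for Tnnt3 and 13.47 for Mb (myoglobin). With 3 arrays a group, the number of arrays limits precision. In bulk muscle, fewer cells of a type and less RNA per cell cannot be told apart.

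The promoters of the 6 genes that passed the test in at least 1 comparison of diet or genotype are shown. Each runs from 250 bases before to 50 after the annotated start, on the strand of the gene, from RefSeq on GRCm38.p6, which held a promoter for 32 of the 33 tested genes (all but Gpd1). They lie at chr6:142507908-142508207 on the minus strand (Ldhb), chr11:5803747-5804046 on the minus strand (Pgam2), chr1:74748906-74749205 on the minus strand (Prkag3), chr2:11553880-11554179 on the minus strand (Pfkfb3), chr9:108991652-108991951 on the plus strand (Pfkfb4) and chrX:106186850-106187149 on the plus strand (Pgk1). Capitals mark matches, on either strand, to the 5 motifs searched.
Ldhb: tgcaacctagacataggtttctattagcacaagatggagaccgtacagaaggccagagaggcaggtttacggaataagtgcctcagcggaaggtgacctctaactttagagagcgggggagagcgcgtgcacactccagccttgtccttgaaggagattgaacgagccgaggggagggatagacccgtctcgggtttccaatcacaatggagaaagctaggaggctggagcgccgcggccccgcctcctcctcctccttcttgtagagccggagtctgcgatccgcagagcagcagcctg
Pgam2: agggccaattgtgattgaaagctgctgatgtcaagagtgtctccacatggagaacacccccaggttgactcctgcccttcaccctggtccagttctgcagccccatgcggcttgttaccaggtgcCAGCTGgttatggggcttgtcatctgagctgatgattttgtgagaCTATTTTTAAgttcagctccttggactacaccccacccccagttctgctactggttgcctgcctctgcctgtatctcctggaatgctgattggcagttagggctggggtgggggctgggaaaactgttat
Prkag3: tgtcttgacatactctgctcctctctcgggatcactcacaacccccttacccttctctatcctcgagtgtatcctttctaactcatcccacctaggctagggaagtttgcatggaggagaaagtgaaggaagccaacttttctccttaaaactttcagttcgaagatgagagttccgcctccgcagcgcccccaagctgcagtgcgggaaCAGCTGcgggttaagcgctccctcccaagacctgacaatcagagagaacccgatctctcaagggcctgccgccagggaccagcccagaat
Pfkfb3: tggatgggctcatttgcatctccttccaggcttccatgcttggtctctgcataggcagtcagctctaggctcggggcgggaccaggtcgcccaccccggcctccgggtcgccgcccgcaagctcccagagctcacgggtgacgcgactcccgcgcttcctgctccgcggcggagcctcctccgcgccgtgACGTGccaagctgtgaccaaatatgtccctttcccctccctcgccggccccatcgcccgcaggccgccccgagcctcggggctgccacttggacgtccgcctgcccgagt
Pfkfb4: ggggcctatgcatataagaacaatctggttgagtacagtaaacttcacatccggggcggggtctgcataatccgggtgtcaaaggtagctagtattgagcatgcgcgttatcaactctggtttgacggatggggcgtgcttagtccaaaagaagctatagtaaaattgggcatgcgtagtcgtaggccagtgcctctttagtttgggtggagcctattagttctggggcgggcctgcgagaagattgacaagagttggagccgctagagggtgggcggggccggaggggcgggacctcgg
Pgk1: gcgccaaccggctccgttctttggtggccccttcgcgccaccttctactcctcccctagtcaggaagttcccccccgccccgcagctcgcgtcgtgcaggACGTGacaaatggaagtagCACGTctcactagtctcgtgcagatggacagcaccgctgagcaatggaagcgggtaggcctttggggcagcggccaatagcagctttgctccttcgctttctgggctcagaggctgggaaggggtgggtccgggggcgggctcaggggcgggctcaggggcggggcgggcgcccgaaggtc
The motifs were the oestrogen-related receptor element TNAAGGTCA, found in 1.28% of 32851 promoters, the E-box CACGTG (7.15%), the hypoxia core ACGTG (19.6%), the muscle E-box CAGCTG (16.3%) and the MEF2 site (3.19%). Every CACGTG also holds ACGTG on both strands. The Pgam2 window held 1 CAGCTG and 1 MEF2 site, that of Prkag3 held 1 CAGCTG, the Pfkfb3 window shown held 1 ACGTG, and that of Pgk1 held 2. The table has a second Pfkfb3 window, at chr2:11502041-11502340, which held 1 CACGTG and 2 ACGTG. These letters did not occur in the Ldhb and Pfkfb4 windows, whereas the window of Ldha, the partner subunit of Ldhb, held 2 CACGTG and 5 ACGTG. A match is a string of letters and not a measured site.

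HFD raised 3 of the 33 genes in WT muscle: the lactate dehydrogenase subunit Ldhb by 75.1%, the AMP-activated kinase subunit Prkag3 by 50% and the muscle phosphoglycerate mutase Pgam2 by 25.8%. None fell. Among all genes tested, 6.06% passed in this comparison by limma at an adjusted p under 0.05 (3.07% higher and 2.99% lower), and 9.09% of the 33 did. At an unadjusted p under 0.05 the count was 9 higher and 1 lower (Pfkfb4), against 13.2% of all genes higher and 9.80% lower. The groups did not overlap for 12 of the 33 genes, against 26.7% of all genes. The median difference of the 33 genes was 0.14, against 0.04 over all genes.

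In KO muscle, 0 of the 33 genes passed between HFD and ND by limma, against 4.54% of all genes. At an unadjusted p under 0.05, 2 were higher (Pgam1, Pgam2) and 3 lower (Pfkfb3, Pfkfb4, Ppp1r3c), against 12.1% of all genes higher and 7.85% lower. The groups did not overlap for 8, against 26.5% of all genes. Of the 33 differences, 15 were above 0 and 18 below, where 57.5% of all genes were above 0. Averaged over both genotypes, HFD against ND gave 5 of 33 past the threshold, against 13.7% of all genes (7.49% higher and 6.19% lower). Ldhb, Pgam2 and Prkag3 rose, and the regulatory enzymes Pfkfb3 and Pfkfb4 fell. The 6 HFD and 6 ND arrays did not overlap for Pgam2 and Pfkfb4, that is for 2 of 33 genes, against 4.92% of all genes.

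Between genotypes on HFD, 0 of the 33 genes passed by limma, against 0.732% of all genes. The differences lay mostly below 0: 26 of 33 genes were lower in KO, where 46.1% of all genes were. At an unadjusted p under 0.05, 14 of the 33 were lower in KO and 2 higher (Hk1, Pfkp), against 5.76% of all genes lower and 9.06% higher. The groups did not overlap for 14 genes, 11 of them lower in KO, against 19.4% of all genes in either direction and 8.39% lower. The median difference of the 33 was −0.22, against 0.03 over all genes and −0.02 over the 6959 genes above the 75th percentile of mean signal. Without KO-HFD replicate 1, where the median deviation of the 33 genes from their means over the arrays was lowest, the median difference was −0.16.

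On ND, 0 of the 33 genes passed between KO and WT by limma, against 0.414% of all genes. At an unadjusted p under 0.05, Prkag3, Ldhb and Ppp1r3c were higher in KO and Pgk1 was lower, against 6.13% of all genes higher and 5.13% lower. The groups did not overlap for 7 of 33 genes, against 17.0% of all. The median difference was −0.05, against 0.02 over all genes. Averaged over both diets, 2 of 33 genes passed, against 1.61% of all genes (0.899% higher and 0.714% lower). Prkag3 was higher in KO and Pgk1, the phosphoglycerate kinase, was lower. The difference between the diet effects of KO and WT, the interaction, passed for 0 of 33 genes by limma, against 0.141% of all genes. At an unadjusted p under 0.05 it was below 0 for Ldhb, Phkg1, Phkb and Prkag3 and above 0 for no gene, against 4.87% of all genes below and 5.52% above.

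**Figure D1:**
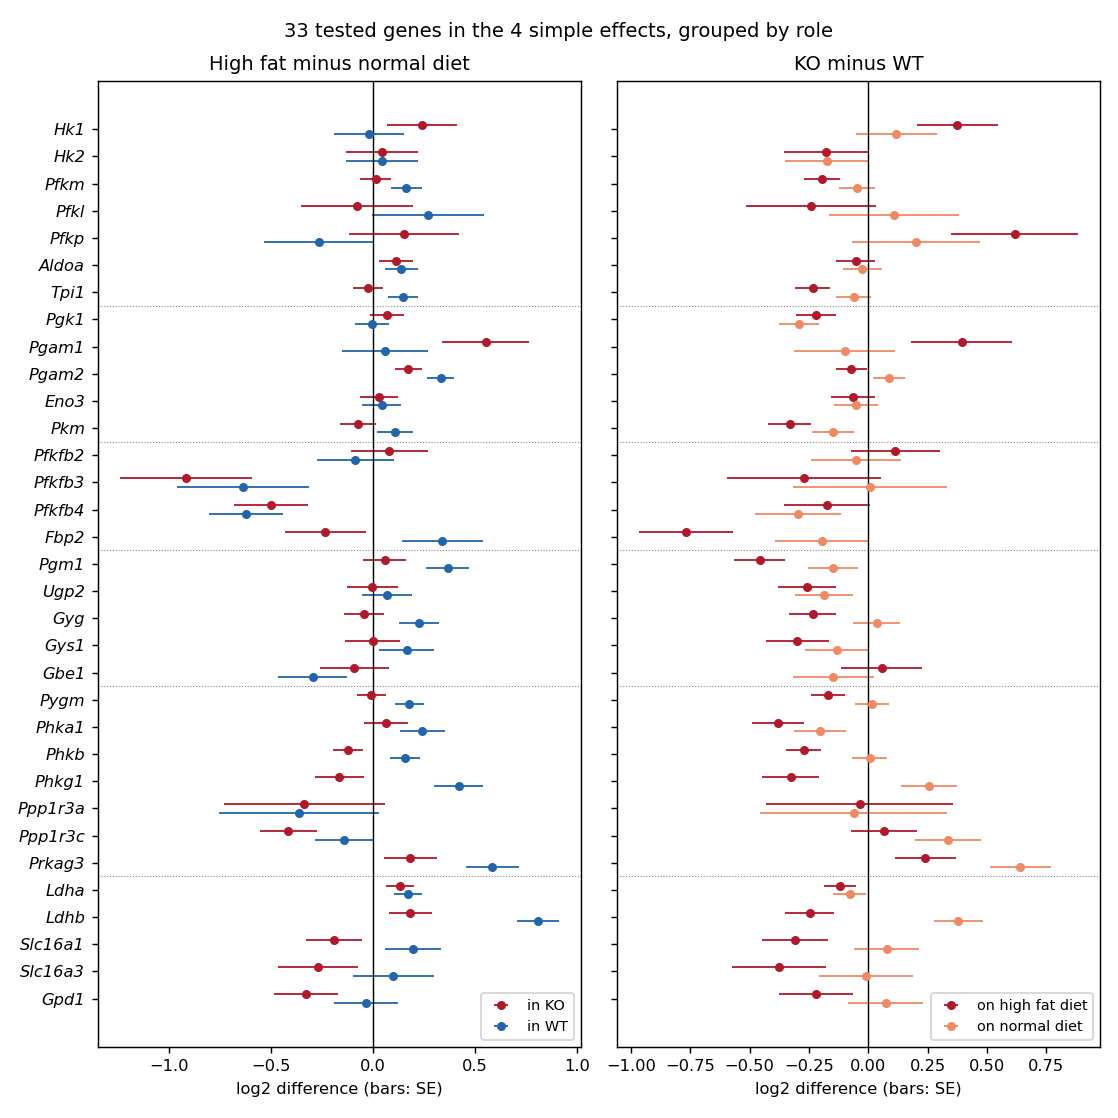
Log2 differences of the 33 tested genes, in order of their step in the pathway, with bars of 1 SE. The left panel gives HFD minus ND in KO and in WT, the right panel KO minus WT on HFD and on ND. In the right panel 26 of the 33 points on HFD lie below 0.

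The genes of the first steps of glycolysis encode hexokinase, which traps glucose as glucose 6-phosphate, phosphofructokinase, which commits it to glycolysis, aldolase and triose-phosphate isomerase. Of 7 tested, 0 passed in any of the 7 comparisons. The muscle phosphofructokinase Pfkm averaged 13.06 ± 0.05 in KO on HFD, 13.04 ± 0.12 in KO on ND, 13.25 ± 0.10 in WT on HFD and 13.09 ± 0.07 in WT on ND (SD, n = 3). The KO-HFD values of Pfkm lay below all 3 WT-HFD values, but the difference of −0.20 did not pass (adjusted p = 0.250). The isomerase Tpi1 averaged 13.12 ± 0.09 in KO on HFD and 13.35 ± 0.11 in WT on HFD, a difference of −0.23 (adjusted p = 0.150). Hexokinase 1 (Hk1) and the platelet-type phosphofructokinase (Pfkp) differed the other way, by 0.38 and 0.62 (adjusted p = 0.326 and 0.311). Hexokinase 2 (Hk2), the insulin-responsive form of muscle, averaged between 11.18 and 11.40 in the 4 groups. Aldolase A (Aldoa) averaged between 13.75 and 13.92.

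The later steps, which yield ATP, include phosphoglycerate kinase, phosphoglycerate mutase, enolase and pyruvate kinase. Pgam2, the mutase subunit of mature muscle, had 13.03, 13.05 and 13.13 in KO on HFD and 12.87, 12.96 and 12.86 in KO on ND. Among WT mice the values were 13.02, 13.19 and 13.20 on HFD and 12.85, 12.81 and 12.77 on ND. All 6 HFD mice were above all 6 ND mice. Pgam2 rose by 0.33 in WT (SE 0.067, adjusted p = 0.0139), and by 0.25 averaged over genotypes (SE 0.047, adjusted p = 0.00432). In KO the difference of 0.17 did not pass (adjusted p = 0.164), and the interaction of −0.16 did not either (adjusted p = 0.588). The WT call of Pgam2 was lost, at adjusted p of up to 0.0601, when WT-ND replicate 2, WT-ND replicate 3 or WT-HFD replicate 2 was left out. The averaged call held without any one of the 12 mice.

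Pgk1 makes the first ATP of the later steps. It had 12.39, 12.51 and 12.64 in KO on HFD, and 12.84, 12.57 and 12.79 in WT on HFD. On ND it had 12.45, 12.46 and 12.43 in KO, and 12.66, 12.79 and 12.76 in WT. The KO values lay below the WT values on ND, and on HFD the highest KO value lay above the lowest WT value. Pgk1 was lower in KO by a log2 difference of −0.26 averaged over diets (SE 0.059, adjusted p = 0.0481). The other 2 Pgk1 probe sets gave −0.36 and −0.63 when all 22518 probe sets were tested (adjusted p = 0.0141 and 0.0471). The call on the brightest set was lost when any of 10 of the 12 mice was left out, all except WT-HFD replicate 2 and KO-HFD replicate 3, with differences between −0.30 and −0.23. Pyruvate kinase (Pkm) differed by −0.33 on HFD (adjusted p = 0.0955), and the muscle enolase Eno3 by −0.06 (95% interval −0.27 to 0.14). Pgam1, the mutase subunit of most other tissues, averaged 6.70 ± 0.27 in KO on HFD and 6.15 ± 0.28 in KO on ND, a difference of 0.55 (adjusted p = 0.162). The 3 control probe sets of Gapdh, which oxidises glyceraldehyde 3-phosphate, were not tested. The 5′ set averaged 13.63 ± 0.05 in KO on HFD, 13.56 ± 0.18 in KO on ND, 13.73 ± 0.11 in WT on HFD and 13.59 ± 0.06 in WT on ND.

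**Figure D2:**
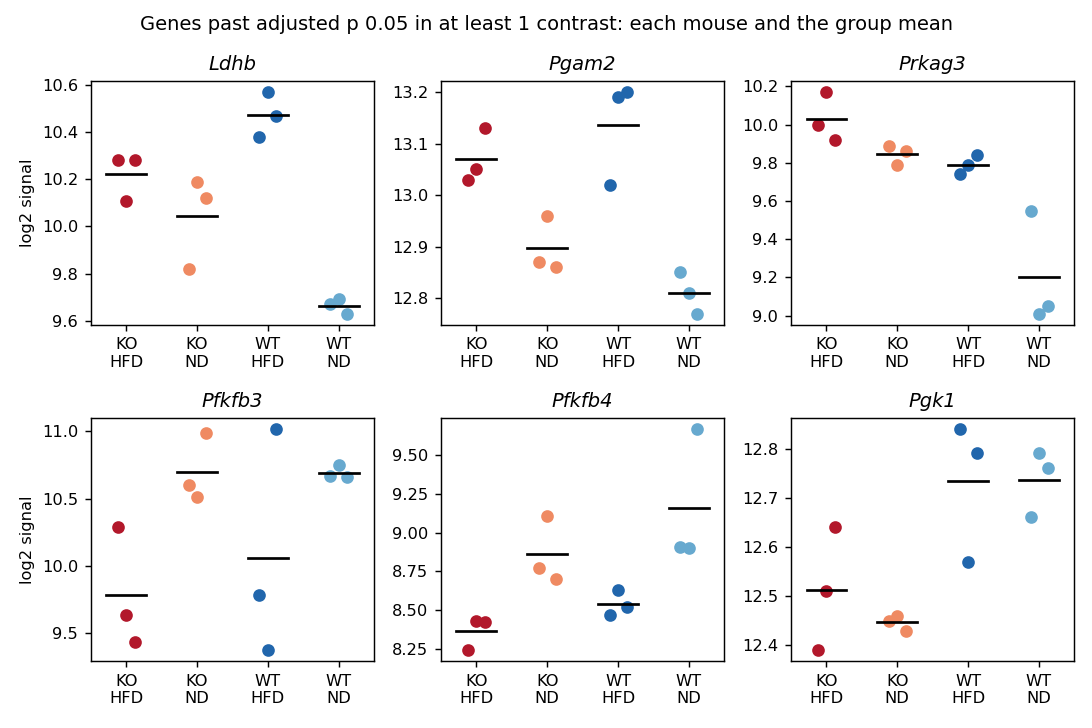
Log2 signal of the 6 genes that passed an adjusted p of 0.05 in at least 1 comparison. Each point is a mouse and each black line the mean of the 3 mice of a group; the vertical axes do not start at 0. Ldhb in WT lies between 10.38 and 10.57 on HFD, above all ND values.

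Both genes that fell with HFD encode enzymes that make and remove fructose 2,6-bisphosphate. Pfkfb4, an isoform described mainly in testis and tumour cells, had 8.24, 8.43 and 8.42 in KO on HFD and 8.77, 9.11 and 8.70 in KO on ND. The WT mice had 8.47, 8.63 and 8.52 on HFD and 8.91, 8.90 and 9.67 on ND. All 6 HFD values lay below all 6 ND values, with one high WT-ND mouse. Averaged over genotypes, the HFD minus ND difference of Pfkfb4 was −0.56 (SE 0.128, adjusted p = 0.0124), a fold of 0.679. It held without any one of the 12 mice, at −0.62 to −0.43.

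Pfkfb3, the inducible isoform with high kinase activity, had 10.29, 9.63 and 9.43 in KO on HFD and 10.60, 10.51 and 10.99 in KO on ND. In WT it had 9.78, 9.37 and 11.02 on HFD and 10.67, 10.75 and 10.66 on ND. In KO the diets did not overlap, while in WT the highest HFD value lay above every ND value. The averaged HFD minus ND difference of Pfkfb3 was −0.78 (SE 0.229, adjusted p = 0.0395). It was −1.02 (adjusted p = 0.00126) without WT-HFD replicate 3, the mouse at 11.02. The call was lost without any of 10 of the 12 mice, all except that one and KO-HFD replicate 1. A dimmer Pfkfb3 probe set gave −0.80 (adjusted p = 0.0280). Pfkfb2, the heart isoform, averaged between 5.84 and 5.96 in the 4 groups. Fbp2, the muscle fructose bisphosphatase, had 10.07, 9.87 and 9.90 in KO on HFD, against 10.51, 10.41 and 11.22 in WT on HFD. The 3 KO mice were below the 3 WT mice, by −0.77 in the mean, the most negative difference among the 33 genes on HFD, and this did not pass (SE 0.198, adjusted p = 0.0817).

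Glycogen synthesis runs from phosphoglucomutase (Pgm1) through UDP-glucose pyrophosphorylase (Ugp2), the primer protein glycogenin (Gyg) and glycogen synthase (Gys1) to the branching enzyme (Gbe1). Read from the brightest probe sets, 0 of these 5 genes passed in any comparison, and 4 of 5 were lower in KO on HFD. Pgm1 had 11.45, 11.69 and 11.70 in KO on HFD, against 12.09, 11.90 and 12.23 in WT on HFD. Every KO value was below every WT value, and the difference of −0.46 (SE 0.106) had an adjusted p of 0.0617. Gys1 differed by −0.30 (adjusted p = 0.322) and Gyg by −0.23 (adjusted p = 0.286) on HFD. Gbe1 differed by 0.06, with a 95% interval of −0.31 to 0.42.

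The second probe set of Pgm1 behaved differently from the brightest one. Chosen here after its values were seen, it had 6.38, 7.41 and 7.15 in KO on HFD and 4.47, 3.96 and 5.27 in KO on ND. Among WT mice the values were 8.08, 7.75 and 7.88 on HFD and 4.92, 4.22 and 4.10 on ND. The diets did not overlap in either genotype, and the WT-HFD mice were above the KO-HFD mice. Tested among 22518 probe sets, it rose with HFD by 3.49 in WT (SE 0.34, adjusted p = 0.000168) and by 2.41 in KO (SE 0.34, adjusted p = 0.00333), which are folds of 11.2 and 5.31. Its ND values lie near the signal filter of 3.78, so the size of these folds is uncertain. The brightest set differed by 0.37 in WT (adjusted p = 0.0637) and 0.06 in KO (adjusted p = 0.832) in the same test. The interaction of the second set, −1.08, did not pass (adjusted p = 0.497). Where the probe sets lie in the Pgm1 transcript was not determined.

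The 5 probe sets of Ugp2, again chosen after their values were seen, were all lower in KO averaged over diets. They differed in whether they passed. The brightest averaged 12.22 ± 0.26 in KO on HFD and 12.47 ± 0.14 in WT on HFD, and its difference averaged over diets, −0.22, did not pass (adjusted p = 0.228). A dimmer set gave −0.26 and did not pass either. The 3 other dimmer sets passed, with log2 differences of −0.45, −0.39 and −0.36 averaged over diets (adjusted p = 0.00845, 0.0121 and 0.0213 among all probe sets). One of them had 9.76, 9.92 and 9.82 in KO on HFD against 10.34, 10.41 and 10.23 in WT on HFD, and 9.82, 10.05 and 10.03 in KO on ND against 10.42, 10.32 and 10.35 in WT on ND. On both diets its KO values lay below its WT values, and on HFD alone the difference of −0.50 passed as well (adjusted p = 0.0414). A dimmer set of Pfkl, the liver-type phosphofructokinase, rose with HFD by 0.99 averaged over genotypes (adjusted p = 0.0134), while the brighter set differed by 0.10. The tested genes had 59 probe sets above the filter, the brightest of each gene included. Of these, 11 other than the brightest passed in at least 1 of the 7 comparisons. They belong to Ldhb, Ugp2, Pgk1, Pfkfb3, Pfkl and Pgm1 only, and sets of one gene are not independent. The share of all 22518 probe sets passing in at least 1 comparison was not counted. The 11 are therefore not read as particular to these genes.

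Glycogen breakdown needs the phosphorylase Pygm, and phosphorylase kinase, built from the subunits Phka1, Phkb and Phkg1, switches it on. None of these 4 genes passed in any comparison. Phkb had 11.55, 11.60 and 11.55 in KO on HFD and 11.63, 11.77 and 11.65 in KO on ND. The WT mice had 11.85, 11.82 and 11.83 on HFD and 11.79, 11.58 and 11.67 on ND. Thus every KO mouse on HFD was below every KO mouse on ND, and every WT mouse on HFD was above every WT mouse on ND. The differences were −0.12 in KO (adjusted p = 0.380) and 0.16 in WT (adjusted p = 0.219), and their interaction of −0.28 did not pass (SE 0.103, adjusted p = 0.370). The catalytic subunit Phkg1 averaged 10.13 ± 0.23 in KO on HFD, 10.30 ± 0.05 in KO on ND, 10.46 ± 0.12 in WT on HFD and 10.04 ± 0.15 in WT on ND. Its diet differences were −0.17 in KO and 0.42 in WT, with an interaction of −0.58 (SE 0.169, adjusted p = 0.260). Phka1 differed between KO and WT by −0.38 on HFD (adjusted p = 0.115) and Pygm by −0.17 (adjusted p = 0.290).

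Prkag3 encodes the gamma subunit of AMP-activated kinase found mainly in fast muscle, where variants in pigs are known for high glycogen. It had 10, 10.17 and 9.92 in KO on HFD and 9.89, 9.79 and 9.86 in KO on ND. In WT it had 9.74, 9.79 and 9.84 on HFD and 9.55, 9.01 and 9.05 on ND. The WT-ND mice were the lowest of the 12, and no other group overlapped them. Prkag3 rose with HFD by 0.58 in WT (SE 0.128, adjusted p = 0.0192) and by 0.38 averaged over genotypes (SE 0.091, adjusted p = 0.0143). In KO the difference of 0.18 did not pass (adjusted p = 0.460). KO was higher than WT by 0.44 averaged over diets (SE 0.091, adjusted p = 0.0275). On ND alone the difference of 0.64 fell just short (SE 0.128, adjusted p = 0.0513), and on HFD it was 0.24 (adjusted p = 0.409). The WT diet call was lost without WT-ND replicate 2 or 3 or WT-HFD replicate 2 or 3, and the difference ran between 0.49 and 0.76 over the 6 mice left out in turn. The genotype call was lost without any of 8 of the 12 mice, and held without WT-ND replicate 1, WT-HFD replicate 2, KO-ND replicate 2 or KO-HFD replicate 3. The subunits that target protein phosphatase to glycogen did not pass. Ppp1r3c averaged 11.88 ± 0.33 in KO on HFD and 12.30 ± 0.02 in KO on ND, a difference of −0.41 (adjusted p = 0.111). Ppp1r3a averaged between 4.02 and 4.42, near the filter of 3.78.

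Lactate dehydrogenase B held the smallest adjusted p among the 33 genes in the WT diet comparison. Ldhb had 10.28, 10.11 and 10.28 in KO on HFD and 9.82, 10.19 and 10.12 in KO on ND. Among WT mice the values were 10.38, 10.57 and 10.47 on HFD and 9.67, 9.69 and 9.63 on ND. The 3 WT-HFD mice were the highest and the 3 WT-ND mice the lowest of the 12, with the KO mice between them. Ldhb rose with HFD by 0.81 in WT (SE 0.103, adjusted p = 0.000996) and by 0.50 averaged over genotypes (SE 0.073, adjusted p = 0.00103). In KO the difference of 0.18 did not pass (95% interval −0.04 to 0.41, adjusted p = 0.348). The interaction was −0.62 (SE 0.145, unadjusted p = 0.000807) and did not pass after adjustment (adjusted p = 0.147). KO differed from WT by 0.38 on ND (adjusted p = 0.160) and by −0.25 on HFD (adjusted p = 0.288). In this brightest probe set the groups did not overlap on either diet. On HFD they overlapped in a dimmer set, with KO up to 10.30 against a lowest WT value of 10.21. Another dimmer set overlapped as well, at 10.33 against 10.24. The remaining dimmer set did not overlap on HFD, at 10.22 against 10.29. All 4 Ldhb probe sets rose in WT, by at least 0.80, and the WT call held without any one of the 6 mice.

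The other lactate and glycerol phosphate genes did not pass in any comparison. Ldha, the muscle subunit that favours lactate formation, averaged 13.16 ± 0.06 in KO on HFD, 13.03 ± 0.08 in KO on ND, 13.28 ± 0.08 in WT on HFD and 13.11 ± 0.06 in WT on ND. Its averaged HFD minus ND difference was 0.15 (SE 0.049, adjusted p = 0.0546). The lactate transporter Slc16a1, the form of oxidative fibres, averaged 9.11 ± 0.19 in KO on HFD and 9.41 ± 0.11 in WT on HFD, a difference of −0.31 (adjusted p = 0.322). Slc16a3, the exporter typical of glycolytic fibres, differed by −0.38 (adjusted p = 0.399). Gpd1, the cytosolic glycerol 3-phosphate dehydrogenase, differed by −0.33 between HFD and ND in KO (adjusted p = 0.266) and by −0.04 in WT. All 5 genes of this group were lower in KO on HFD, by −0.38 to −0.12.

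**Figure D3:**
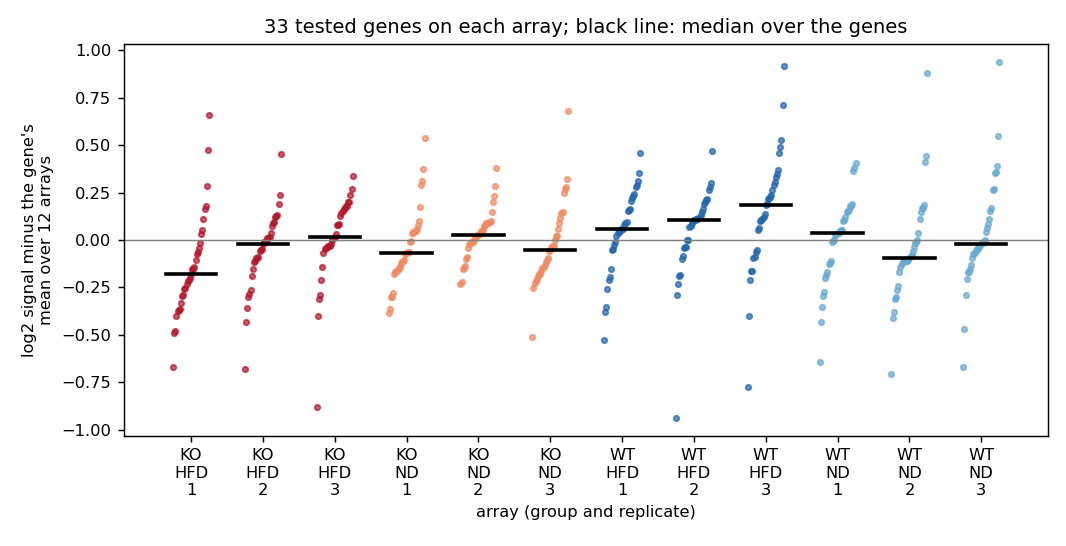
Log2 signal of each of the 33 tested genes minus the mean of that gene over the 12 arrays, one column of points per array, with the median as a black line. The medians run from −0.18 on KO-HFD replicate 1 to 0.18 on WT-HFD replicate 3.

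Between mice of one group, the median pooled SD of the 33 genes was 0.173, against 0.241 over all genes tested. It was lowest for Pgam2 (0.066) and Phkb (0.067) and highest for Pfkfb3 (0.501) and Ppp1r3a (0.435). The median deviation of the 33 genes on an array lay between −0.18 and 0.01 in KO on HFD, −0.07 and 0.03 in KO on ND, 0.06 and 0.18 in WT on HFD, and −0.09 and 0.03 in WT on ND.

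Genes that feed or drain the pathway were followed through 5 lists of 95 genes, 78 of them tested, also listed with earlier results of these data known. Of the 78, HFD raised 6 and lowered 1 in WT, where 6.06% of all genes passed. The leading ones were Rpia, an isomerase of the pentose phosphate pathway (0.94, adjusted p = 0.000797), Bpgm, which makes 2,3-bisphosphoglycerate (0.65, adjusted p = 0.00633), Pdp1, the phosphatase that activates pyruvate dehydrogenase (0.91, adjusted p = 0.00845), and Mlxipl, the carbohydrate response factor ChREBP (0.70, adjusted p = 0.0192). The one that fell, named after its value was seen, was Mlx, the dimer partner of ChREBP (−0.65, adjusted p = 0.0330). In KO, 3 rose and 1 fell, against 4.54% of all genes passing. Pdp1 rose by 1.02 (adjusted p = 0.00493), the myeloid hexokinase Hk3 by 1.40 (adjusted p = 0.0306) and the coactivator Ppargc1b by 0.90 (adjusted p = 0.0374), and Myc had a difference of −1.17 (adjusted p = 0.0335). Averaged over genotypes, 6 rose and 4 fell, against 13.7% of all genes passing. The smallest adjusted p were those of Pdp1 (0.96, adjusted p = 0.000313), Rpia (0.60, adjusted p = 0.000581), Ppargc1b (0.86, adjusted p = 0.00341) and Bpgm (0.43, adjusted p = 0.00380). Those that fell were Myc (−0.97), the alanine transaminase Gpt2 (−0.64), Mlx (−0.43) and the pyruvate dehydrogenase kinase Pdk4 (−0.24), at adjusted p of 0.00671, 0.00872, 0.0265 and 0.0222, and they too are named after their values were seen. Between KO and WT averaged over diets, the malic enzyme Me1 was higher in KO (0.89, adjusted p = 0.0161) and Stbd1, a protein that tethers glycogen to membranes, was lower (−0.75, adjusted p = 0.0300). In that comparison 1.61% of all genes passed. On either diet alone, 0 of the 78 passed between genotypes, as did 0 in the interaction. Of all genes, 0.414% passed on ND, 0.732% on HFD and 0.141% in the interaction.

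Fibre and other cell type markers moved with some of these results. In WT, all 12 fast fibre genes were above 0 between HFD and ND (median 0.16, 0 past the threshold), and so were all 11 slow fibre genes (median 0.33, 3 past the threshold: Myl2, Myl3 and Tnnc1). In KO all 12 fast fibre genes were also above 0 (median 0.14), as were 10 of 11 slow fibre genes (median 0.16, with Casq2 past the threshold). On ND, all 11 slow fibre genes were higher in KO, with a median of 0.41 and Myl3 past the threshold. Summed slow fibre signal, on the linear scale, was 35406 to 40280 in KO on ND against 27716 to 31999 in WT on ND. On HFD the fast fibre sum was 140616 to 151145 in KO and 136424 to 157880 in WT, and the fast fibre median difference was −0.03. For slow fibre genes the sum was 36133 to 44521 in KO and 36959 to 39020 in WT on HFD, with 8 of 11 genes above 0, a median of 0.24 and Casq2 past the threshold. Averaged over diets, all 11 slow fibre genes were higher in KO, with a median of 0.34 and Myh7, Myl2, Myl3 and Casq2 past the threshold. The part of fibre markers in the gene results was not tested.

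On HFD, adipocyte, fibroblast, macrophage and Schwann cell markers were mostly higher in KO. All 5 tested of 7 adipocyte genes were above 0 (0 passed), with sums of 15543 to 17192 in KO and 8589 to 15447 in WT. All 6 fibroblast genes were above 0 (Col1a1 and Col3a1 passed), with sums of 12361 to 16830 in KO and 7651 to 11272 in WT. Of 8 macrophage genes 7 were above 0 (Cd68 passed), with sums of 3878 to 6519 in KO and 2203 to 4605 in WT. All 4 tested of 6 Schwann cell genes were above 0 (0 passed), with sums of 891 to 1469 in KO and 691 to 862 in WT. The 7 endothelial genes had a median of 0.03, and 1 of 5 erythroid genes, Alas2, was tested and differed by −0.22. No marker list had a median of exactly 0, but the endothelial median equalled that of all genes tested (0.03). In KO, between HFD and ND, 7 of 8 macrophage genes were above 0 (median 0.80, with Adgre1, Lyz2 and C1qb past the threshold), as were 5 of 6 fibroblast genes (median 0.80, with Col1a1, Col1a2 and Col3a1 past it) and all 5 tested adipocyte genes (median 1.66, with Fabp4 past it). The KO sums on ND were 2570 to 3544 for macrophage, 9702 to 10454 for fibroblast and 7088 to 11187 for adipocyte genes. The part of these cell types in the results for the 33 genes and for Hk3 was not tested.

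**Figure D4:**
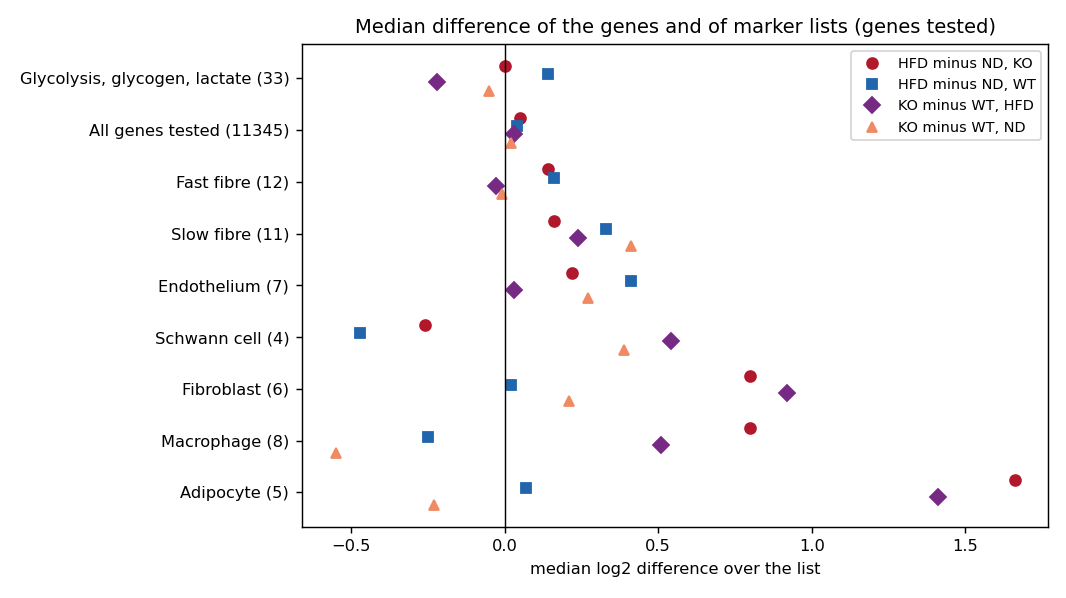
Median log2 difference, in each of 4 comparisons, of the 33 genes, of all 11345 genes tested and of 7 marker lists, with the number of genes tested in brackets. The 33 genes sit at −0.22 for KO minus WT on HFD, where fast fibre genes sit at −0.03.

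The 3′ over 5′ log2 ratio of the beta-actin and Gapdh control probe sets, a sign of RNA integrity, averaged 0.16 ± 0.13 in KO on HFD, 0.07 ± 0.06 in KO on ND, 0.18 ± 0.02 in WT on HFD and −0.02 ± 0.09 in WT on ND. It was higher on HFD in WT. The beta-actin ratio alone was 0.09 to 0.42 in WT on ND and 0.58 to 0.64 in WT on HFD. The Gapdh ratio alone was −0.28 to −0.24 in WT on ND and −0.27 to −0.24 in WT on HFD. With the mean of both ratios as a covariate, 1 of the 33 genes passed between HFD and ND in WT, which was Ldhb. The median difference of the 33 was then 0.21. With the same covariate the median difference between KO and WT on HFD was −0.22.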

How the data were processed

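Total RNA from muscle of 12 mice was labelled with biotin and hybridised to one-colour Affymetrix arrays, per the labels. The authors deposited log2 signals. The submitters' processing notes name MAS5, with no version stated. The linear trimmed mean (2 to 98%) was 100.0 on all arrays, and array medians lay between 3.87 and 4.17. The deposited log2 values were used without further normalization.

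Of 45101 probe sets, 64 controls were removed. Probe sets with a single gene symbol in the platform annotation (34945; 932 had several and 9160 none) and a mean above the median of 3.78 (13.8 linear) were kept. The brightest stood for its gene, giving 11345 genes. Gapdh probe sets other than controls carry several symbols and were not used.

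One model over 12 arrays was fitted with limma 3.58.1 (R 4.3.3), using eBayes with its intensity trend (residual degrees of freedom 8, median prior 5.42), for 7 contrasts. P-values were adjusted by Benjamini-Hochberg over all genes of a contrast, at a threshold of 0.05. Replicate mice are named by separate numbers in the labels. The p-values test differences of group means, judged against the spread between replicate mice. The fit was tested on simulated data. Marker sums add linear signals of the tested genes of a list. Motifs were searched in RefSeq promoters on both strands. Tables and figures used Python 3.11.15, pandas 2.3.3, numpy 2.4.6 and matplotlib 3.10.9.

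The 37 genes, the other lists and the comparisons were chosen with earlier results of these data known. Values on every array are given for each gene that passed in at least 1 contrast; other genes are given by means, ranges or counts. Fbp2, Pgm1, Phkb and the dimmer probe sets of Pgm1 and Ugp2 are also given per array, chosen after their values were seen. Of the other pathway genes, the 4 with the smallest adjusted p per contrast are named, besides the genes said to be named after their values were seen. The alternatives were each mouse left out in turn, a fit of the compared groups alone, a covariate for the 3′ over 5′ ratio, array weights, a fit without the trend, probe set means per gene, all probe sets, median centring, quantile normalization, a 75th percentile filter, no filter, and an offset added at the 10th or the 50th percentile of linear signal.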

Additional observations from a re-analysis of the deposited data

Results flagged for a closer look

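The diet effect pointed in opposite directions in the genotypes for Phkb, the regulatory beta subunit of phosphorylase kinase, with every KO mouse lower on HFD than on ND and every WT mouse higher. Neither diet difference passed by limma (adjusted p = 0.380 in KO and 0.219 in WT). The interaction was -0.28 and did not pass (SE 0.103, adjusted p = 0.370). Of all genes, 26.7% did not overlap between diets in WT and 26.5% in KO. How many did so in opposite directions was not counted, so the pattern is not read as particular to Phkb.

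For Ldhb the genotype difference turned with diet. On the brightest probe set, every KO mouse was below every WT mouse on HFD and above every WT mouse on ND. The separation on HFD did not hold in all Ldhb probe sets. In a dimmer set KO reached 10.30 against a lowest WT value of 10.21, and in another 10.33 against 10.24. In the remaining set the highest KO value was 10.22 and the lowest WT value 10.29. The interaction was -0.62 (SE 0.145, adjusted p = 0.147) and did not pass either. Of all genes, 19.4% did not overlap between genotypes on HFD and 17% on ND. The share that did so in opposite directions was not counted here either.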

How the results depend on the processing

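Over 10 calls on the 6 genes and 215 combinations of a call with an alternative, 156 kept direction and call, 59 kept direction but lost the call and 0 reversed. Ldhb kept its call in all 18 alternatives in WT (0.73 to 0.88) and all 23 averaged over genotypes (0.42 to 0.55). In WT, Pgam2 (0.22 to 0.39) and Prkag3 (0.49 to 0.76) each lost the call in 7 of 18. Averaged over genotypes, Pgam2 and Pfkfb4 each lost the call in 1 alternative, Prkag3 in 2 and Pfkfb3 in 13. Pgk1 lost its genotype call in 17 of 23 and Prkag3 in 11.

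Counts of the 33 genes past the threshold moved by over 1.5 times as follows. Between HFD and ND in WT (3), the count was 6 with the filter at the 75th percentile, 5 with array weights, and 1 without the intensity trend or with the 3′ over 5′ covariate. Between HFD and ND in KO (0), it was 1 with the mean of probe sets, array weights or only the groups compared. Between KO and WT on ND (0), it was 1 with either offset, the filter at the 75th percentile or array weights, and on HFD (0) it was 1 with the offset at the 50th percentile. Averaged over genotypes (5), it was 3 with median centring and 2 with the covariate. Averaged over diets (2), it was 1 without the filter, with quantile normalization, all probe sets or array weights, and 0 with median centring, without the trend or with the covariate. The share of all genes passing under each alternative is not given here. These counts are therefore not read as changes particular to the 33 genes. The causes were not tested.

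With each mouse left out in turn, the counts ranged from 1 to 6 for HFD against ND in WT (6 without WT-ND replicate 1, and 1 without WT-ND replicate 2, WT-ND replicate 3 or WT-HFD replicate 2), 0 to 0 in KO and 4 to 7 averaged. They ranged from 0 to 1 for KO against WT on ND (1 without WT-ND replicate 1), 0 to 2 on HFD (2 without WT-HFD replicate 2) and 0 to 3 averaged. The interaction stayed at 0 to 0. These ranges too are given without the share of all genes passing. The median difference of the 33 genes between KO and WT on HFD was -0.28 with median centring and -0.15 with quantile normalization. No paired analysis was possible because the mouse numbers are not shared between groups. With 3 mice a group, small differences may be missed, and dim probe sets such as those of Ppp1r3a and Pfkl lie near the signal filter.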
